A study of Mus musculus with 10 samples.

Results

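The heterozygous control oviduct of an ovulation-induction study in mice is described from its 5 PR+/- pools, which are 5 of the 10 arrays in the series. The members were taken by their genotype label, and the 5 homozygous mutant (PRKO) arrays were not used. The mutation is a lacZ knock-in that stops transcription of both forms of the progesterone receptor gene Pgr; PR+/- animals carry 1 disrupted and 1 intact copy, and the submitters describe them as fertile. All animals were prepubertal, 21 to 23 days old, and had been given 5 IU of equine chorionic gonadotropin (eCG) and, 44 to 47 h later, 5 IU of human chorionic gonadotropin (hCG), both into the peritoneum. Whole oviducts were removed 8 h after hCG, and each pool combined the oviducts of 3 animals, so that 15 animals of this genotype were sampled. No untreated animals and no wild-type animals were among the samples used, so the eCG and hCG treatment and the single mutated Pgr allele are shared by every value given here. Since 1 group is described, no genotype test was made and no p-value is given.

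The oviduct receives the ovulated oocytes, and fertilisation and the earliest embryonic divisions take place in it. Its lining holds secretory cells, which release proteins into the fluid around gametes and embryos, and multiciliated cells, whose beating cilia move the oocytes. Around the lining lie a collagen-rich stroma, a coat of smooth muscle whose contractions also move oocytes, and an outer mesothelium. The ovary lies directly beside its opening, and hCG stands in for the surge of luteinizing hormone that triggers ovulation.

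Each array gave 1 log2 signal per probe set, and 19938 genes could be named. The floor between dim and brighter genes was set at the 95th percentile of 1027 olfactory receptor genes, which had a median signal of 2.65; the floor was 4.09 on the log2 scale, and 14436 genes (72.4%) had a mean signal above it. A gene's percentile is its place among all 19938 genes by mean log2 signal. These ranks order the brightness of probe sets, which depends on the probes as well as on the RNA, and are not counts of molecules; nor can fewer cells of a type be told apart from less RNA per cell in whole tissue. Any pair of pools correlated at 0.9945 to 0.9964 over genes. Pool 4 stood apart from the other pools in genes of ovarian steroid-making cells, whose mean signal there was 0.66 above its average over the 5 pools on the log2 scale, and results that rest on that pool are also given without it. Markers of the labelled tissue were present: Pax8, a transcription factor of Müllerian epithelium, had signals of 8.53, 8.58, 8.47, 8.45 and 8.51 in pools 1 to 5, and Foxj1, which drives the formation of motile cilia, had 7.26, 7.30, 7.07, 7.09 and 7.08. The oviductal glycoprotein gene Ovgp1, the best known secretory marker, was not analysed here because its probe set is annotated to 2 genes.

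The brightest genes served protein synthesis, the cytoskeleton and protein folding, together with a few small noncoding RNAs. Rn7sk, the 7SK small nuclear RNA that restrains transcriptional elongation, led with a mean log2 signal of 13.53 ± 0.04 (SD, n = 5). Next came Eef1a1, a translation elongation factor, with signals of 12.98, 13.01, 13.01, 12.99 and 12.99, and Actb, cytoplasmic actin, at 12.95 ± 0.04 (SD, n = 5). Plet1, a surface protein of epithelial progenitor cells, followed with signals of 12.73, 12.77, 12.70, 12.80 and 12.78. The remaining places among the first 10 went to COX2, the mitochondrially encoded subunit 2 of cytochrome c oxidase (12.42), Acta2, smooth muscle actin (12.27), the nuclear RNA Malat1 (12.25), the ribosomal protein gene Rps6 (12.22), Hsp90b1, a chaperone of the endoplasmic reticulum (12.06), and Rpl10 (12.03). Symbols starting with Rpl or Rps made up 16 of the 100 brightest genes, and 70 named genes had such a symbol with a number. Such symbols can also belong to genes that do not encode ribosomal proteins.

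Further bright genes included products of the secretory pathway and of lysosomes. Hspa5 (11.63) and Pdia3 (11.60) fold proteins in the endoplasmic reticulum, and Ctsb (11.82) and Psap (11.77) encode a lysosomal protease and the saposin precursor. Cbs, which starts the conversion of homocysteine to cysteine, had a mean of 11.91, and A2ml1, a protease inhibitor of the alpha-2-macroglobulin family, had 11.77. Col1a1 (11.70) and Vim (11.69) represented the stroma, Fth1 (11.76) iron storage, Hspa8 (12.03) cytosolic chaperones, Emb (11.64) the transport of monocarboxylates and Atp5a1 (11.55) ATP synthesis. Tpt1 (11.95), Mrfap1 (11.66) and the Y RNA Rny3 (12.01) completed the set with 2 genes that varied between pools. Rpph1, the RNA of ribonuclease P, had signals of 12.55, 12.30, 11.76, 11.74 and 11.72, so pools 1 and 2 lay above the others.

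The other, Baiap2l1, had signals of 12.70, 11.62, 11.75, 11.62 and 12.27, high in pools 1 and 5. The annotation of that Baiap2l1 probe set also lists ribosomal RNA transcripts. A probe set annotated to Baiap2l1 transcripts alone had a mean of 6.95 and a range of 0.17, so the place of Baiap2l1 among the brightest genes is uncertain. Among the 100 brightest genes the median range between highest and lowest pool was 0.16, and Baiap2l1 was the single gene of these with a range of at least 1, a 2-fold difference. Each gene was read from its brightest probe set. Another probe set of Hspa8 had signals of 11.82, 10.60, 11.34, 11.58 and 11.45, a range of 1.225, and its remaining one had a range of 0.12.

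Lists of known marker genes were placed on this scale, each described by the median percentile of its measured members and the number above the floor, to be read against 72.4% of all genes above it. Among the cell type lists, those of lining, stroma, muscle and mesothelium had the highest medians. The median percentile was 95.1 for genes shared by oviduct epithelial cells, 94.8 for stromal fibroblasts, 91.2 for smooth muscle, 90.4 for mesothelium, 80.9 for multiciliated cells and 72.3 for secretory cells. Leaving out any 1 pool kept the 5 lists of epithelium, muscle and stroma within 71.1 and 95.2. Lists of unrelated tissues had lower medians, such as 26.2 for skeletal muscle, 26.6 for pancreas, 25.2 for photoreceptors and 18.2 for hepatocytes, with 5 of 10, 2 of 5, 1 of 4 and 2 of 6 members above the floor. None of 3 Y chromosome genes was above it, and the brightest of them, Kdm5d, had a mean of 2.76.

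**Figure D1:**
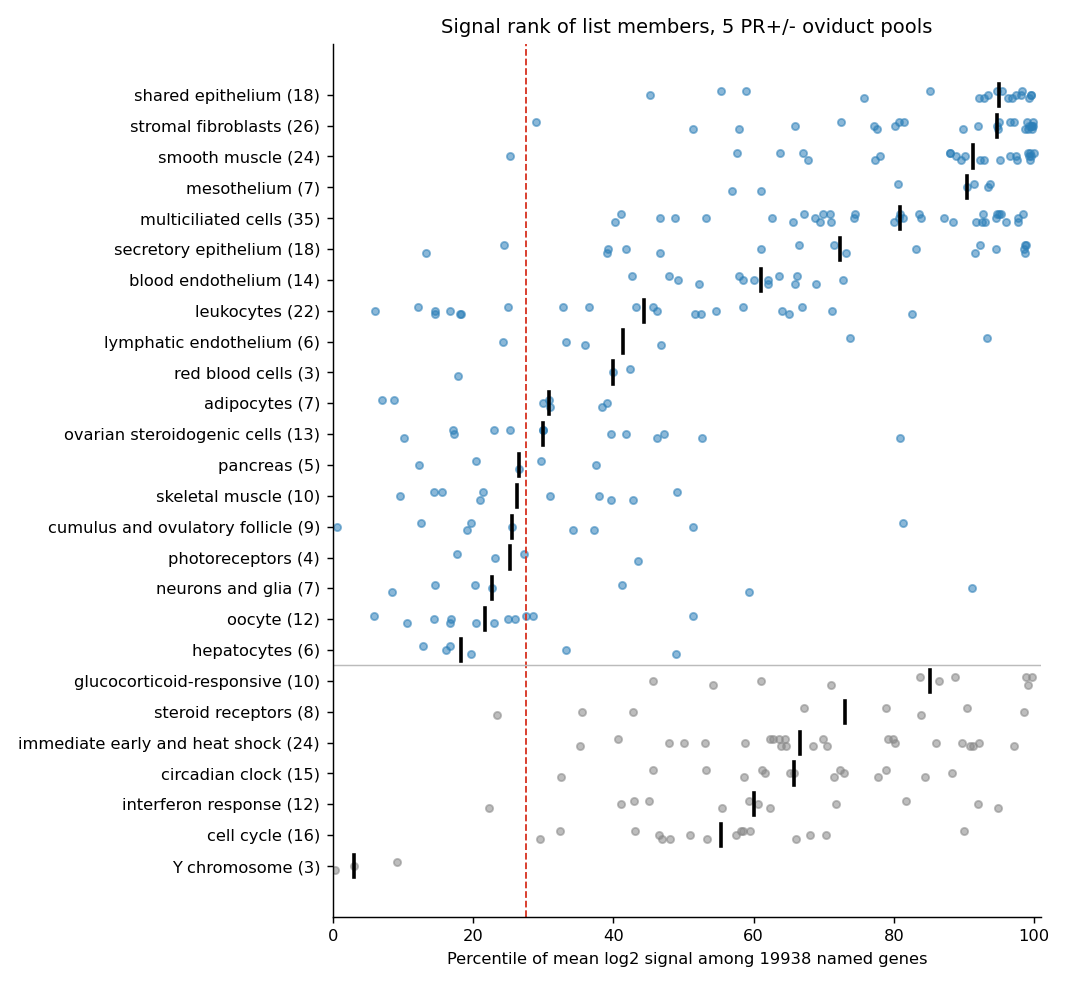
Signal rank of marker genes in the 5 PR+/- pools: each point is 1 gene at its percentile of mean log2 signal (x axis, percent), each row is 1 list with its number of measured genes, the black bar is the list's median and the dashed line is the olfactory floor. The shared epithelial, stromal, muscle and mesothelial lists have medians of 90.4 to 95.1, while the oocyte, photoreceptor, hepatocyte, pancreas and skeletal muscle lists have medians of 18.2 to 26.6.

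All 18 measured genes shared by the lining cells were above the floor, and 13 were in the top 10% of genes. Krt19, an intermediate filament protein of simple epithelia, had signals of 11.05, 11.13, 10.91, 11.01 and 11.00, a range of 0.22. Cd24a, a mucin-like surface protein, had a mean of 10.90, and Spint2, an inhibitor of membrane serine proteases, had 10.62. Krt18 (9.86), the epithelial transcription factor Ehf (9.80) and the adhesion protein Cdh1, E-cadherin (9.51), followed. The dimmest member was the tight junction gene Cldn4, at 5.04 in pool 1 and 5.35 to 5.48 in the other 4. Of these 18 genes 10 (55.6%) had their highest signal in pool 2, against 19.7% of all genes above the floor. The list's mean differed by no more than 0.16 between any 2 pools. Its mean deviation from its average over the pools was 0.09 in pool 2 and -0.03 in pool 5. After scaling the arrays to 1 interquartile range, these deviations were 0.052 and 0.056, so pool 2 no longer led.

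Secretory markers were spread widely, with 16 of 18 above the floor and 7 in the top 10%. Bright members included proteins that withhold iron from bacteria: Lcn2, a lipocalin that binds siderophores, had signals of 10.29, 10.50, 10.01, 10.01 and 10.35, and Ltf, lactotransferrin, had 9.98, 10.12, 9.99, 10.26 and 10.26. Lcn2 was lowest in pools 3 and 4, where Ltf was at 9.99 and 10.26, so the pair did not follow a common order. Clu, the extracellular chaperone clusterin, had a mean of 10.14 with a range of 0.21. Upk1a, a uroplakin, had signals of 9.59, 10.28, 9.71, 10.14 and 10.23, with pools 1 and 3 below the rest. Gpx3, the secreted glutathione peroxidase, had a mean of 8.84. Wfdc2, a protease inhibitor of the whey acidic protein family, was the member with the largest range, 1.04: its signals were 6.76, 6.46, 7.21 and 7.50 in pools 1 to 4, and pool 5 lay close to the mean of 6.99. The dimmest was Dmbt1, a mucosal scavenger receptor, at 2.85 to 3.32, below the floor in every pool.

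All 35 measured genes of multiciliated cells were above the floor and 12 were in the top 10%. Structural genes of the axoneme, the microtubule core of the cilium, were brightest. Cfap44, a protein that tethers inner dynein arms, had signals of 10.12, 10.07, 9.92, 9.82 and 9.89. Dnah5, an outer dynein arm heavy chain, had 9.87, 9.79, 9.49, 9.42 and 9.56. Both were highest in pools 1 and 2 and lowest in pool 4. Cfap43, the partner of Cfap44, had a mean of 9.65 but was highest in pool 5. Tppp3 (9.13), which binds tubulin, Odf3b (8.95) and the radial spoke gene Rsph4a (8.89) completed the brightest 6. The dimmest was Spag16, of the central apparatus, at 5.00. Factors that start the multiciliated programme ranged from Ccno at 5.06 and Mcidas at 5.45 through Trp73 at 6.48 and Gmnc at 6.96 to Myb at 7.15.

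The pattern of Cfap44 and Dnah5 was common in this list. Of the 35 genes, 18 (51.4%) were highest in pool 1 and 13 (37.1%) in pool 2, against 22.5% and 19.7% of all genes above the floor. The lowest pool was pool 4 for 21 (60.0%), against 24.0%. On average the list deviated from its own mean by 0.12, 0.11, -0.08, -0.12 and -0.04 in pools 1 to 5, a span of 0.24 on the log2 scale. After scaling the arrays to 1 interquartile range, these deviations were 0.08, 0.09, -0.09, -0.09 and 0.01.

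Promoter windows were read from RefSeq (GRCm38.p6), 250 bases before to 50 bases after each gene's start, for 31 of the 35 ciliated genes. RFX transcription factors are known regulators of ciliary genes, and the core letters GTTGCC of their binding site were searched on both strands. They occurred in 17 of 40 windows (42.5%), which belonged to 16 genes, against 12.5% of 32851 windows of the same length. Windows on 1 chromosome were left out, here and in the later counts, both from the lists and from what is called all windows. Windows of the brightest member, Cfap44 (chr16:44394549-44394848, plus strand, 2 matches), and of 2 further bright members with matches, Hydin (chr8:110266727-110267026, plus strand, 1 match) and Cdhr3 (chr12:33092826-33093125, minus strand, 1 match), are printed to show the match, in capitals as GGCAAC, its form on the opposite strand. The signals of Hydin, of the central apparatus, were 9.02, 8.93, 8.76, 8.63 and 8.83, and those of Cdhr3, a cadherin of ciliated cells, were 8.85, 8.61, 8.44, 8.62 and 8.46. A match describes the letters and does not show binding.
Cfap44: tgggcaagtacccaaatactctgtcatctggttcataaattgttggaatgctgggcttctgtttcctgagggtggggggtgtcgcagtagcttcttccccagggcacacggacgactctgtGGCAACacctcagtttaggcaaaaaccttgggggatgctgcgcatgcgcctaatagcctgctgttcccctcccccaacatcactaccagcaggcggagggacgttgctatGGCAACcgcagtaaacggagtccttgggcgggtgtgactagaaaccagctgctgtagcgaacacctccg
Hydin: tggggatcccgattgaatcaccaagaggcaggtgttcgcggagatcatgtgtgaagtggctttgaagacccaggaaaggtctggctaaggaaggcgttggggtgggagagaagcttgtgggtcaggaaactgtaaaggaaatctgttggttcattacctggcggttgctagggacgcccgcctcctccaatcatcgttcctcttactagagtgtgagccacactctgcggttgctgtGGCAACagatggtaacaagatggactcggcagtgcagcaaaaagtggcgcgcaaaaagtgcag
Cdhr3: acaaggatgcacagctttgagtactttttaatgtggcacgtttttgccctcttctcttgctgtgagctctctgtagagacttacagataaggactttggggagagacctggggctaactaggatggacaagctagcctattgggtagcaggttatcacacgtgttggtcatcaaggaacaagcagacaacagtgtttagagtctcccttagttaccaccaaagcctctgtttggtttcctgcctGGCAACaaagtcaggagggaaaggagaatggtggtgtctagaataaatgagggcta

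Contractile genes were among the brightest of the tissue: 23 of 24 smooth muscle genes were above the floor and 13 were in the top 10%. Acta2 had signals of 12.27, 12.27, 12.30, 12.21 and 12.29, a range of 0.10. Myh11, the smooth muscle myosin heavy chain, had 10.76, 10.63, 10.68, 10.48 and 10.65, and Myl9, its regulatory light chain, had 10.76, 10.70, 10.66, 10.34 and 10.62. Pool 4 was lowest for each of these 3 genes. Flna (11.00), which links actin filaments, Tagln (10.71), an actin-binding protein of smooth muscle, and Tpm1 (10.43), a tropomyosin, were similarly bright. Casq2, a calcium-binding protein best known from heart, was the dimmest at 3.93. Of the 24 genes 16 (66.7%) were lowest in pool 4, against 24.0% of all genes above the floor, where the list's mean deviation was -0.08. After scaling to 1 interquartile range the muscle list stood at -0.05 in pools 2 and 4 and at 0.12 in pool 5. The CArG box, the site of serum response factor, was found on either strand in 1 of 22 promoter windows of 20 muscle genes (4.55%), that of Myl9, and in 1.63% of all windows.

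Stromal genes were bright in every pool. All 26 were above the floor and 15 were in the top 10%. Col1a1, the alpha 1 chain of type I collagen, had signals of 11.68, 11.51, 11.82, 11.74 and 11.73, and Col1a2, its partner chain, had 11.22, 11.05, 11.25, 11.15 and 11.14. Both collagen chains were lowest in pool 2, as were 13 of the 26 genes (14.7% of all genes above the floor were). The intermediate filament gene Vim (11.69), the matrix protein Sparc (11.08), the proteoglycan Dcn (10.92) and the surface protein Cd34 (10.62) made up the rest of the brightest 6, and Pi16 was the dimmest at 4.19. The list's mean differed by at most 0.11 between pools, and by 0.01 without pool 2, but by 0.23 after scaling to 1 interquartile range, with pool 2 at -0.12 and pool 5 at 0.11. The 7 mesothelial genes were also all above the floor, led by the transcription factor Wt1 (8.68), Upk3b (8.64), the surface protein Msln, mesothelin (8.41), and Upk1b (8.30). Gpm6a (7.51), Bnc1 (6.39) and Lrrn4 (6.14) were dimmer.

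Vascular and blood cell genes had intermediate or low ranks. All 14 genes of blood endothelium were above the floor, with a median percentile of 61.1 and none in the top 10%. Eng, a coreceptor for TGF beta, was brightest at 7.06, followed by Egfl7 (6.84), Esam (6.69), the VEGF receptor Kdr (6.67), Pecam1 (6.54) and Emcn (6.46). Robo4 was dimmest at 5.17. Of 6 lymphatic genes 5 were above the floor, from Pdpn (8.63), which mesothelium also expresses, through Lyve1 (7.12), Reln (5.46), Flt4 (4.69) and Mmrn1 (4.50) down to Prox1 at 3.85.

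Of 22 leukocyte genes 14 were above the floor, with a median percentile of 44.4, and macrophage and antigen presentation genes led. Lyz2, lysozyme, had a mean of 7.65, the growth factor receptor Csf1r 6.73, Cd68 6.56 and C1qa, of complement, 6.25. H2-Ab1, a class II antigen presentation gene, had signals of 7.37, 7.09, 6.95, 6.79 and 6.65, and Cd74, its chaperone, had 6.70, 6.89, 6.73, 6.43 and 6.35. Pools 4 and 5 were lowest for both. The B cell gene Cd79a was dimmest at 2.51. Of the red cell genes 3 could be measured: Alas2, the erythroid enzyme that starts heme synthesis, had 4.69, 4.95, 5.22, 5.07 and 5.82 and Slc4a1, band 3, had 4.81, 4.82, 5.06, 4.90 and 5.30, both highest in pool 5, while Epb42 had a mean of 3.39.

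Other cell types had few bright markers. Of 7 adipocyte genes 5 were above the floor, namely Fabp4 (4.91), Car3 (4.86), Retn (4.33), Cidec (4.32) and Plin1 (4.25), while the hormones Lep (2.72) and Adipoq (2.60) were below it. Car3, a carbonic anhydrase, had signals of 5.58, 4.52, 4.46, 5.10 and 4.64, high in pool 1. Neural genes comprised 3 of 7 above the floor, S100b (8.38), Prph (6.29) and Sox10 (5.07), while Snap25 (3.73), Tubb3 (3.56), Nefl (3.16) and Elavl4 (2.70) were below. For skeletal muscle the brightest were Acta1 (5.62), Tnnt3 (5.18), Tnni2 (4.96), Ckm (4.82), Actn3 (4.33) and Mylpf (3.64), and Myh1 (2.78) was the dimmest. In the hepatocyte list Apoa2 (5.62) and Apoa1 (4.49) were above the floor, and Ahsg (3.53), Fgb (3.31), Cyp2e1 (3.27) and Alb (3.03) were not. For pancreas these were Cela2a (4.79) and Cpa1 (4.24), against Ctrb1 (4.02), Ins2 (3.56) and Gcg (2.99), and for photoreceptors Sag (5.23), against Pde6a (4.07), Gnat1 (3.76) and Crx (3.38).

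Steroid receptor genes were ranked in the same way. With no untreated group, their ranks cannot show the hormonal state of the tissue. Esr1, estrogen receptor alpha, was in the top 10% with signals of 10.05, 10.04, 10.01, 9.97 and 9.96, a range of 0.09, whereas Esr2, estrogen receptor beta, was below the floor at 3.78. Pgr, of which these animals carry 1 intact copy, had 7.55, 7.48, 7.43, 7.27 and 7.35, a percentile of 78.9. The membrane-associated Pgrmc2 (8.31) and Pgrmc1 (7.74), the glucocorticoid receptor Nr3c1 (6.74) and the mineralocorticoid receptor Nr3c2 (5.17) were all above the floor. Each of 10 genes known to respond to glucocorticoids was above it too, with a median percentile of 85.1. Whether glucocorticoids acted on these genes here was not tested. The metallothioneins Mt2 (11.18) and Mt1 (10.43), the ERBB inhibitor Errfi1 (10.20), Fkbp5 (8.14), a chaperone that lowers receptor activity, Zbtb16 (7.93) and the kinase Sgk1 (7.74) led, and Pdk4 (5.38) was the dimmest.

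The pools resembled each other closely, and few named genes above the floor moved by much. The count over all probe sets, unnamed ones included, was larger and is given at the end. Among the 14436 genes above the floor the median SD over the 5 pools was 0.105 and the median range was 0.26, which is 1.20-fold. For 95% of genes the range was below 0.57. A range of at least 1 was found for 62 genes (0.429%), which are called variable here. The spread was larger for dim genes: when the genes were put into 5 equal classes by signal, the median SD fell from 0.145 in the dimmest to 0.0795 in the brightest, and the variable genes numbered 23, 21, 5, 7 and 6 from dim to bright. Just inside the threshold was Gdpd3, at 1.02, and just outside it were Hjv, at 0.99, and Tmem267, at 0.97. Of the 62 genes, 11 were passed over in naming, 5 of them microRNAs and 4 predicted loci.

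**Figure D2:**
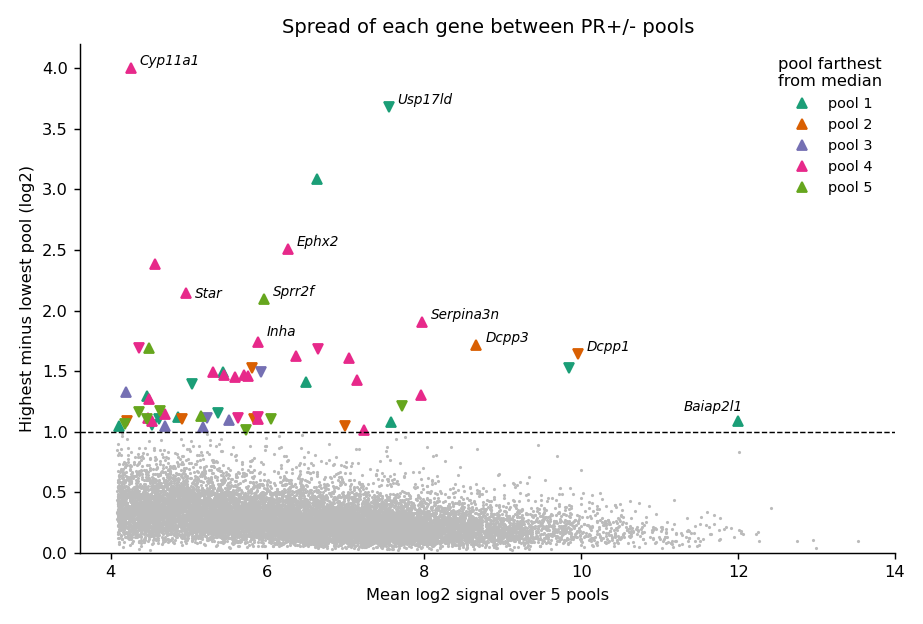
Spread between pools against signal for the 14436 genes above the floor: the x axis is the mean log2 signal over 5 PR+/- pools, the y axis is the highest minus the lowest pool (log2), and the dashed line marks 1. Coloured triangles are the 62 variable genes, coloured by the pool farthest from the gene's median and pointing up where that pool is high; pool 4 is the farthest for 25 of them, 21 times on the high side.

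Pool 4 accounted for the largest share of variable genes. It was the pool farthest from the gene's median for 25 of the 62 (40.3%), against 21.3% of all genes above the floor, and in 21 of the 25 it was high. Pools 1, 2, 3 and 5 were farthest for 14, 7, 6 and 10 genes. Without pool 4, 31 of the 62 genes remained above the floor with a range of at least 1; leaving out pools 1, 2, 3 and 5 left 42, 53, 48 and 50. Dixon's gap calls a pool apart when its distance to the nearest other pool exceeds 0.71 of the range. By chance about 5% of groups of 5 meet this, and 769 genes (5.33%) had 1 pool apart. For 87 (0.603%) this was pool 4 on the high side, fewer than the 109 with pool 5 low and the 96 with pool 3 high. The remaining pools and sides had 50 to 80 genes each.

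The genes high in pool 4 included those of steroid synthesis in the ovary. Cyp11a1, which cuts the cholesterol side chain and so begins steroid synthesis, had signals of 3.05, 3.92, 3.65, 7.04 and 3.62, and its SD was the largest of all genes above the floor. It passed the floor of 4.09 through pool 4, since its other 4 signals lay below it, so its place there is a description. Star, which brings cholesterol into mitochondria, had 4.74, 4.54, 4.66, 6.50 and 4.35, and Inha, the inhibin alpha subunit of granulosa cells, had 5.58, 5.46, 5.51, 7.20 and 5.64. In all 3 genes pool 4 lay above the other 4, which for Star and Inha were close together. Hsd3b1, the next enzyme of steroid synthesis, was below the floor on average but was also highest in pool 4, with 2.58, 2.49, 2.50, 4.17 and 2.43. The other bright members of the ovarian list differed less between pools: Scarb1, a lipoprotein receptor, had 7.69, 7.46, 7.38, 7.70 and 7.43, and Inhbb (5.49) and Foxl2 (5.43) were lowest in pool 4 or tied with the lowest. Nr5a1, a regulator of steroidogenic genes, had 4.93, 5.09, 4.98, 5.42 and 5.14, highest in pool 4. Below the floor, Cyp17a1, which makes androgens, was highest in pool 4 too, with 3.21, 3.18, 3.34, 3.92 and 3.06.

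Of 13 measured ovarian genes 8 were above the floor, Cyp11a1 among them, and 9 (69.2%) had their highest signal in pool 4, against 18.0% of all genes above the floor. The list deviated by -0.16, -0.16, -0.14, 0.66 and -0.20 in pools 1 to 5, and the span of 0.85 became 0.06 without pool 4. The letters AAGGTCA of the binding site of Nr5a1 were in none of 8 promoter windows of 7 ovarian genes on either strand, and in 4.72% of all windows. The absence says that these letters are not in those windows.

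Genes of the cumulus cells that surround the ovulated oocyte, and of the oocyte itself, were mostly dim, and many were also highest in pool 4. Of 9 cumulus genes 4 were above the floor, namely Ptgs2, the inducible prostaglandin synthase, with 7.58, 7.48, 7.54, 7.89 and 7.33, Tnfaip6 (5.79), Edn2 (4.78) and Btc (4.57). Below it were Ereg (3.95), Has2 (3.52) and Il6, at 1.74 to 2.22, and Sult1e1, the estrogen sulfotransferase, with 2.14, 2.58, 2.80, 4.79 and 2.75. Pool 4 was highest for 6 of the 9 (66.7%), against 18.0% of all genes above the floor. The list's span of 0.53 was 0.14 over the members above the floor. In the oocyte list 2 of 12 genes, Ooep (5.80) and Zp1 (4.16), were above the floor, and 9 of 12 were highest in pool 4. Nlrp5, a maternal-effect gene, had 3.35, 3.68, 3.60, 4.85 and 3.28, and the zona pellucida gene Zp2 had 3.03, 3.25, 3.10, 4.33 and 2.91. Both exceeded the floor of 4.09 in pool 4 alone. Gdf9 (4.08), Figla (3.97), Bmp15 (3.90) and Oosp1 (2.50) were below it on average.

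**Figure D3:**
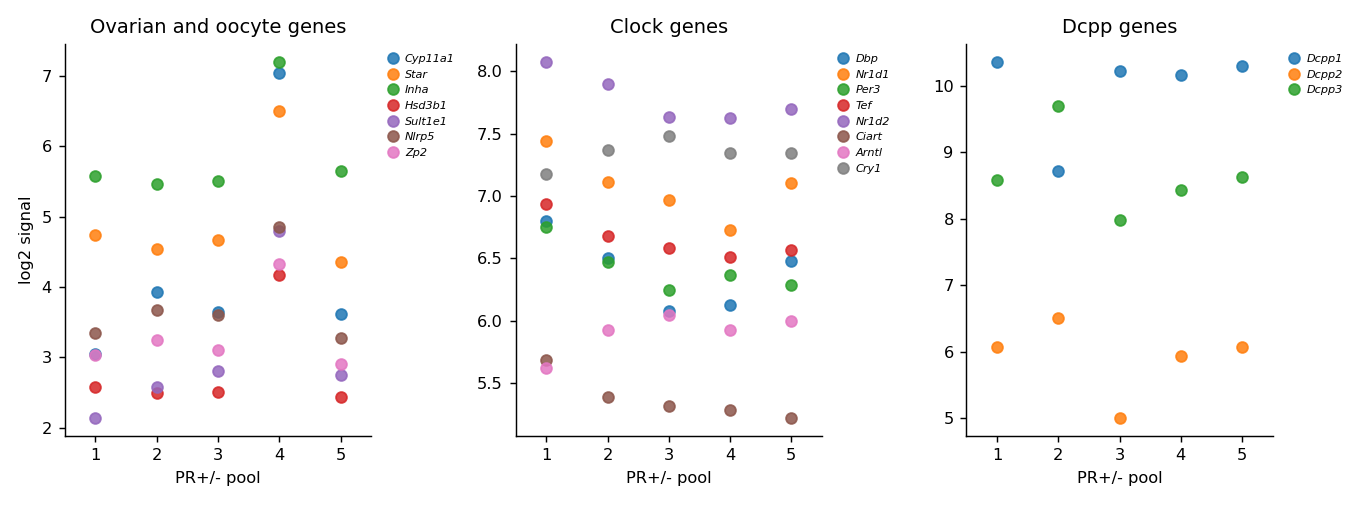
Signal of selected genes in each of the 5 PR+/- pools (x axis) on the log2 scale (y axis, different in each panel): ovarian and oocyte genes, clock genes and Dcpp genes. Cyp11a1, at 7.04 in pool 4 and 3.05 to 3.92 elsewhere, rises above the other pools in pool 4, Dbp and Nr1d1 are highest in pool 1, and Dcpp1 is low in pool 2.

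More variable genes high in pool 4 came from outside these lists. Ephx2, soluble epoxide hydrolase, had signals of 5.69, 5.98, 5.75, 8.20 and 5.70, and Smarca1, a chromatin remodelling ATPase, had 5.35, 5.24, 5.44, 6.68 and 5.23. Elobl had 3.96, 4.68, 3.92, 6.31 and 3.95. In each of these genes pool 4 stood alone above the others. Serpina3n, a serine protease inhibitor, had 7.38, 7.27, 7.95, 9.17 and 8.10, with pools 1 and 2 lowest. The Wnt antagonist Sfrp4 had 6.51, 6.85, 7.09, 8.11 and 6.66, and the matrix proteoglycan Vcan, versican, had 6.56, 7.03, 7.17, 7.99 and 6.99. Both were lowest in pool 1 and highest in pool 4, as was Timp1, an inhibitor of metalloproteinases, at 5.01 and 6.48. Ctse, an aspartic protease, ran from 5.63 in pool 2 to 7.25 in pool 4, Coch, cochlin, from 5.14 to 6.60 in the same pools, Gpr137b-ps from 4.69 in pool 3 to 6.18 and the cytochrome P450 gene Cyp2j11 from 4.04 in pool 3 to 5.31. The share of these genes' signal that came from ovarian or cumulus tissue was not tested.

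The remaining genes among the 30 most variable followed other orders. Sprr2f, of the small proline-rich family of epithelial envelopes, had 5.08, 5.62, 5.65, 6.26 and 7.17, lowest in pool 1 and highest in pool 5. Serpina9 had 6.81, 7.46, 7.06, 5.78 and 6.08, low in pools 4 and 5, and Adh7, an alcohol and retinol dehydrogenase, had 7.98, 8.26, 7.93, 7.34 and 7.05, low in the same pools. Wfdc6a ran from 4.92 in pool 2 to 6.45 in pool 4, and St6galnac1, a sialyltransferase, from 3.77 in pool 5 to 5.06 in pool 1. Clec10a, a lectin of macrophages, ran from 3.45 in pool 4 to 5.14 in pool 1, and Ctla2a, a cathepsin inhibitor, from 3.76 in pool 4 to 5.45 in pool 5. The vault RNA Vaultrc5 had 7.44, 6.75, 6.17, 6.03 and 6.10, highest in pools 1 and 2 like Rpph1. AY036118 had 8.88, 9.65, 10.30, 10.41 and 9.97, lowest in pool 1; its probe set may detect ribosomal RNA, which was not tested. Usp17ld (5.15 in pool 1 and 7.47 to 8.83 elsewhere), Usp17lc (3.63 in pool 1 and 4.96 in pool 3) and Prr23a1 (6.54 in pool 1 and 5.05 to 5.35 elsewhere) belong to families of near-identical copies, so the assignment of their signal to 1 copy is uncertain.

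Dcpp1, Dcpp2 and Dcpp3, secreted demilune cell and parotid proteins, are such a family too and were all variable. Dcpp1 had signals of 10.36, 8.72, 10.23, 10.17 and 10.30, low in pool 2. Dcpp3 had 8.58, 9.69, 7.98, 8.43 and 8.63, and Dcpp2 had 6.07, 6.50, 5.01, 5.94 and 6.07. Pool 2, lowest for Dcpp1, was thus highest for Dcpp3 and Dcpp2, and pool 3 was lowest for those 2 genes. The genes lie side by side on chromosome 17, and their promoter windows (chr17:23880626-23880925, chr17:23898472-23898771 and chr17:23917208-23917507, all on the plus strand, RefSeq, GRCm38.p6) are printed to show how alike the copies are. Dcpp1 was identical to Dcpp2 at 95.3% of 300 bases and to Dcpp3 at 96.3%, and Dcpp2 to Dcpp3 at 97.0%; capitals mark the 9 bases of Dcpp2 and the 7 of Dcpp3 that differ from the aligned base of Dcpp1.
Dcpp1: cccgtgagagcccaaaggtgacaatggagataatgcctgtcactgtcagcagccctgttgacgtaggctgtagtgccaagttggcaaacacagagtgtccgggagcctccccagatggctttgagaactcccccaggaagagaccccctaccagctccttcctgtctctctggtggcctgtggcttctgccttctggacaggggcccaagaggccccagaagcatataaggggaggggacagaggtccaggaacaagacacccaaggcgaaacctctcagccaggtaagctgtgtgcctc
Dcpp2: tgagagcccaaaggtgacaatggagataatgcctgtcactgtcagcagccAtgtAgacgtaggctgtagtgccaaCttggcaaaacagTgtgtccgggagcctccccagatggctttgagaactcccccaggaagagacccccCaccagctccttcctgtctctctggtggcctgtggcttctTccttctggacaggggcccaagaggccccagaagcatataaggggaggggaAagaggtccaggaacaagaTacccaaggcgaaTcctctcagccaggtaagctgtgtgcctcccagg
Dcpp3: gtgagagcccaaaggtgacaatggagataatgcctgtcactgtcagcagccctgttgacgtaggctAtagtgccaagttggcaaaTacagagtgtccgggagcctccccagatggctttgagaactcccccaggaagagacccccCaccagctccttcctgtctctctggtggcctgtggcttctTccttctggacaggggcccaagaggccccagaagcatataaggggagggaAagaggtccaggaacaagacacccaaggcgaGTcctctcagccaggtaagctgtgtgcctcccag
These windows lie at the gene starts and are not the probe sequences, so they do not show how far the probe sets detect each other's transcripts.

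Circadian clock genes differed between pools in an order close to that of the multiciliated list. All 15 were above the floor and none was variable by its brightest probe set. The list deviated by 0.12, 0.09, -0.09, -0.08 and -0.04 in pools 1 to 5, against 0.12, 0.11, -0.08, -0.12 and -0.04 for the multiciliated list. After scaling to 1 interquartile range, the clock deviations were 0.101, 0.075, -0.105, -0.056 and -0.015. Another probe set of Ciart, with a mean of 4.98, had a range of 1.06. Clock, a core activator, was the brightest and the steadiest, at 8.08 to 8.13. Of the 15 genes 8 (53.3%) were highest in pool 1, against 22.5% of all genes above the floor: Dbp, an output transcription factor, had 6.80, 6.50, 6.08, 6.12 and 6.48, and Nr1d1, REV-ERB alpha, had 7.44, 7.11, 6.97, 6.72 and 7.10. Nr1d2, its relative, had 8.08, 7.89, 7.63, 7.63 and 7.70. Per3 (6.75 in pool 1 and 6.25 to 6.47 elsewhere), Tef (6.93 and 6.51 to 6.68), Ciart (5.69 and 5.22 to 5.39) and Cry2 (7.63 and 7.23 to 7.58) were also highest in pool 1. The activator gene Arntl, which Nr1d1 is known to repress, had 5.62, 5.93, 6.05, 5.93 and 5.99, and Cry1 had 7.18, 7.37, 7.48, 7.35 and 7.35. Both were lowest in pool 1. The repressor genes Per1 and Per2 were highest in pools 2 and 3, at 7.12 and 7.14, and the dimmest member was Bhlhe41 at 4.44. The time of day at collection is not given in the labels, and its part in this order was not tested.

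The E-box CACGTG, through which Clock and Arntl act, was in 6 of 18 promoter windows of 13 clock genes (33.3%), those of Bhlhe41, Ciart, Cry1, Per1 and Tef, and in 7.15% of all windows, searched on both strands. The window of Ciart (chr3:95882179-95882478, minus strand, RefSeq, GRCm38.p6) held 3 copies and is printed with them in capitals.
Ciart: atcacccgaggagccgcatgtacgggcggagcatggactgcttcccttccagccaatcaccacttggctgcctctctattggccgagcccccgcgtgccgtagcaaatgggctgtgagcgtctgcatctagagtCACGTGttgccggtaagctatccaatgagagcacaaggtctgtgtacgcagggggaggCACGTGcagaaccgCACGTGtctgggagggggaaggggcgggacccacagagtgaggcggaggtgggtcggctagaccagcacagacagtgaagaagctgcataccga

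Interferon-induced genes set pool 2 apart from the others. Of 12 measured genes 11 were above the floor, and 10 (83.3%) were highest in pool 2, against 19.7% of all genes above the floor. Usp18, which restrains interferon signalling, had 6.98, 7.46, 6.88, 6.76 and 6.94, the transcription factor Irf7 had 6.58, 6.94, 6.30, 6.21 and 6.30, and Ifit3 had 4.58, 5.47, 5.09, 4.93 and 5.20. Pool 2 was the highest in each. Oasl2 (8.88), Rtp4 (7.60) and Oas2 (6.36) were also highest in pool 2, with ranges of 0.26, 0.22 and 0.32, and Bst2 (8.48) was highest in pool 1 instead. Mx1 was below the floor at 3.70. The list deviated by -0.11, 0.25, -0.04, -0.08 and -0.02, and its span of 0.35 was 0.09 without pool 2.

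Proliferation genes were lower in rank, and early response genes were all detected. All 16 cell cycle genes were above the floor, with a median percentile of 55.4, and 11 (68.8%) were highest in pool 3, against 22.1% of all genes above the floor. Pcna, the replication clamp, had 8.00, 8.34, 8.34, 8.27 and 8.30, and Top2a, a topoisomerase of dividing cells, had 6.83, 6.77, 7.16, 7.10 and 6.76. Mki67 had 6.17, 6.06, 6.51, 6.47 and 6.26, and like Top2a it was highest in pools 3 and 4. Mcm6 (6.79), Ccna2 (6.68) and Tyms (6.25) were of similar brightness and Bub1 was the dimmest at 4.23. The 24 immediate early and heat shock genes, which respond to stimulation and to handling of tissue within minutes, were all above the floor, with a median percentile of 66.6. Hsph1 (9.41), the phosphatase gene Dusp1 (8.49), Jun (8.39), Ccn2 (8.34), Ccn1 (8.22) and Dnajb1 (7.91) led, and Egr2 (4.64) was the dimmest. Dnajb1, a heat shock cochaperone, had 8.18, 7.96, 7.83, 7.92 and 7.64, and Hsph1 had 9.65, 9.39, 9.36, 9.40 and 9.23. Both were highest in pool 1 and lowest in pool 5. The list as a whole went the other way in pool 1. Its mean deviations were -0.07, 0.04, 0.05, -0.01 and -0.01 in pools 1 to 5. Pool 1 was the highest for 3 of the 24 genes (12.5%) and the lowest for 8 (33.3%), against 22.5% and 19.6% of all genes above the floor. Pool 5 was also the lowest for 8, and pool 2 was the highest for 10 (41.7%).

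**Figure D4:**
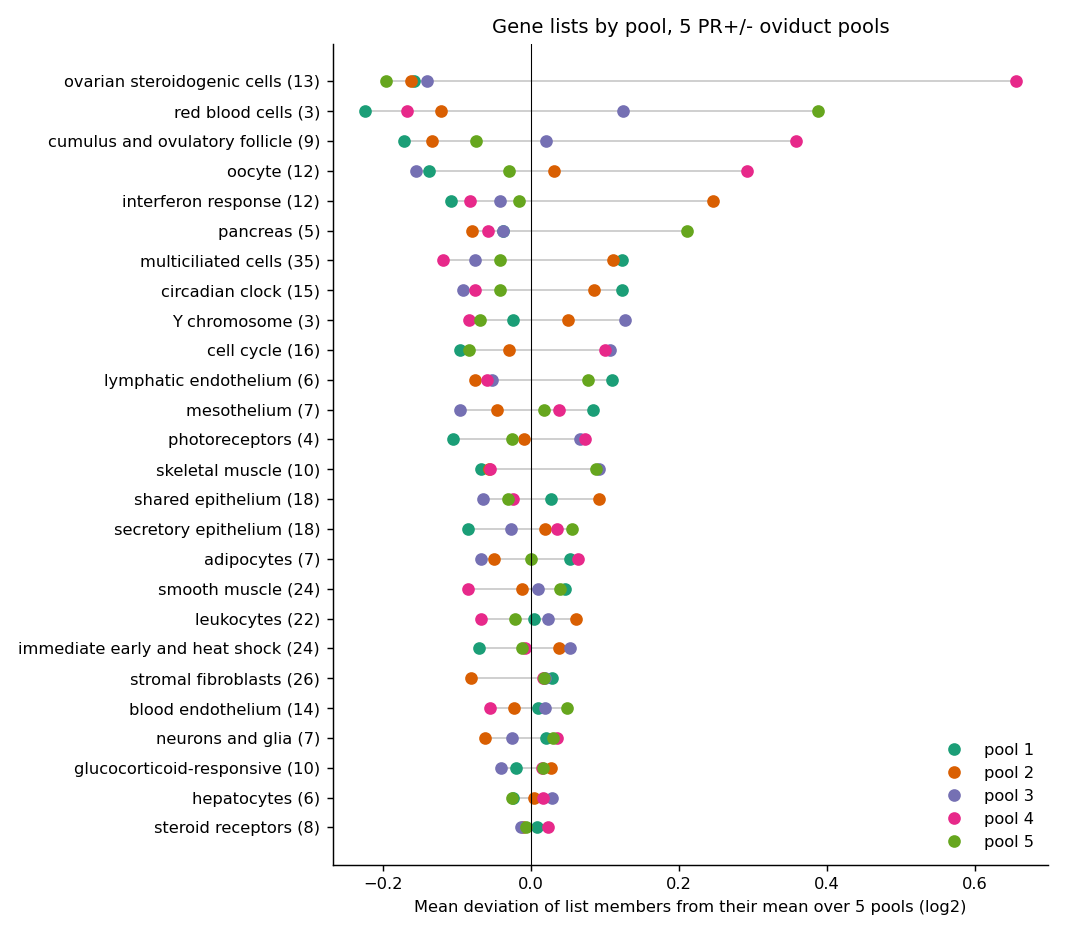
Mean deviation of each gene list by pool: the x axis is the mean over list members of the log2 signal in a pool minus the member's mean over the 5 PR+/- pools, each point is 1 pool and each row 1 list with its number of measured genes. Pool 4 stands at 0.66 for ovarian steroidogenic genes and pool 2 at 0.25 for interferon genes, while the smooth muscle and stromal lists span 0.13 and 0.11, the latter 0.23 after scaling to 1 interquartile range.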

How the data were processed

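Total RNA of whole oviducts was labelled with biotin through an Affymetrix whole-transcript kit, per the labels' protocols, and each of the 5 PR+/- arrays held a separate pool. The authors deposited 1 processed value per probe set and array, and processed the arrays in Partek, per the submitters' processing notes; how background was corrected, arrays were normalized and probes were summarised is not given in the sources used here. That the deposited values are log2 signals was inferred from their range (1.09 to 13.6), and folds hold only if so. The pools' medians were 5.20, 5.20, 5.24, 5.23 and 5.24, and nothing was normalized again. The interquartile range over named genes fell from pool 1 to pool 5, at 3.37, 3.34, 3.28, 3.27 and 3.20. Counts of genes highest or lowest in a pool were taken without scaling for this. The number of arrays limits the precision, and the table holds no detection values.

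Of 35557 probe sets, 21789 carried 1 gene symbol in the platform annotation, 1621 several and 12147 none. IDs of 21698 were found in a table of GRCm38 genes and 0 changed symbol. For the 999 genes with several probe sets, the one with the highest mean over the 5 arrays was used. SD and range (highest minus lowest pool) were taken over the 5 pools. Values with ± are SD. Named genes are the 10 brightest, the 25 brightest outside ribosomal protein, mitochondrial-prefixed and predicted genes, the 30 with the largest SD above the floor, and of each of 26 lists the 6 brightest, the dimmest and each member above the floor with a range of at least 1. Olfactory receptors, small nucleolar RNAs, microRNAs and predicted loci entered the counts without being named. Foxj1, Mcidas, Ccno, Trp73, Gmnc, Myb, Cyp17a1, Hydin, Cdhr3, Hsd3b1, Sult1e1, Nlrp5, Zp2, Dbp, Per3, Tef, Ciart, Arntl, Per1, Ifit3, the genes next to the threshold and genes named for a pool that stands apart were chosen outside this rule after their values were seen. The pools, lists and rule were chosen with earlier results of these data known, so none of the patterns is independent support.

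Alternatives were quantile normalization, centring, scaling to 1 interquartile range, the mean of probe sets, each pool left out, other floors and summaries. The procedure was tested on simulated data. Python 3.11.15, numpy 2.4.6 and pandas 2.3.3 were used.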

Additional observations from a re-analysis of the deposited data

Results flagged for a closer look

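In some lists and genes 1 pool lay far from the other 4: its distance to the nearest of them, as a share of the whole range, exceeded 0.71, which by chance about 5% of groups of 5 do. The 26 lists and 384 genes (those described and all measured list members) were examined, and 4 lists and 38 genes met this. Of the 38 genes, 14 had pool 4 on the high side. Among all genes above the floor, 5.33% had 1 pool apart and 0.603% had pool 4 apart on the high side. The 384 genes include the 30 chosen for the largest SD over these same pools, and list members below the floor. Their counts are therefore not comparable with those shares.

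Among the lists the share was 0.935 for ovarian steroidogenic cells with pool 4 high, 0.885 for stromal fibroblasts with pool 2 low, 0.854 for pancreas with pool 5 high and 0.742 for interferon response with pool 2 high.

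Pool 4 was high, with the share in brackets, for the ovarian genes Cyp11a1 (0.780), Star (0.817), Inha (0.894) and Hsd3b1 (0.914), the cumulus genes Ereg (0.868) and Sult1e1 (0.750), and the oocyte genes Zp2 (0.760) and Nlrp5 (0.745). Further genes high there were Ephx2 (0.885), Smarca1 (0.856), Rps6 (0.790), Cpa1 (0.713), Bub1 (0.784) and Clock (0.779). For Rps6 the share is that of the brightest of its 8 probe sets, and pool 4 did not stand apart in the others. Pool 4 was low for the muscle genes Des (0.743), Synpo2 (0.746) and Tpm2 (0.892) and for Lyz2 (0.746).

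Pool 1 was high for Prr23a1 (0.802) and Jun (0.777) and low for Cldn4 (0.711), Retn (0.753), Alb (0.859), Fos (0.730), Pcna (0.789) and Arntl (0.717). Pool 2 was low for Dcpp1 (0.881) and Gadd45b (0.812) and high for Fgb (0.864). Pool 3 was low for Muc1 (0.744), Nobox (0.731) and Sult1a1 (0.746). Pool 5 was high for Rny3 (0.726), Ogn (0.730), Prox1 (0.797), Pou5f1 (0.734) and Ctrb1 (0.841) and low for Hspa5 (0.723). Several of these are small in absolute terms: the range was 0.05 for Clock, 0.15 for Fgb and 0.16 for Rps6.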

How the results depend on the processing

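The 25 brightest genes stayed the same under quantile normalization and without any 1 pool, and 23 were shared when probe sets of a gene were averaged. The mean percentile of members, in place of the median, was 68.51 for secretory, 87.48 for shared epithelial, 78.0 for multiciliated, 85.42 for smooth muscle and 85.72 for stromal genes; ranks among genes above the floor were 93.2, 73.66, 89.3 and 92.8 for the last 4. Without any 1 pool, the median percentiles were 71.13 to 73.75, 94.89 to 95.24, 80.62 to 81.35, 91 to 91.51 and 94.59 to 94.89 in the same 5 lists. Scaled to 1 interquartile range, the span between pools was 0.21 in place of 0.14 for secretory and 0.23 in place of 0.11 for stromal genes, and over members above the floor it was 0.14 in place of 0.53 for cumulus genes. Without any 1 pool the spans were 0.08 to 0.14 (secretory, lowest without pool 1), 0.09 to 0.16 (shared, pool 2), 0.2 to 0.24 (multiciliated), 0.06 to 0.13 (muscle, pool 4), 0.01 to 0.11 (stromal, pool 2), 0.06 to 0.85 (ovarian, pool 4), 0.19 to 0.53 (cumulus, pool 4) and 0.19 to 0.45 (oocyte, pool 4). Variable genes numbered 62, or 97 with no floor and 41 with a floor at the 99th percentile of olfactory genes. With an SD of at least 0.5 as the rule they numbered 31. Over all 35557 probe sets, unnamed ones included, 1123 had a range of at least 1 and a mean above the floor. Without any 1 pool, variable genes numbered 31 to 53, the fewest without pool 4. Of 172 values of other lists under these alternatives, without those that leave out a pool, 131 moved by less than 1 SD between pools and 41 by more; percentiles and spans have no sign. The causes were not tested. No paired analysis was possible because 1 group is described and no result comes from a test.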
